A study of Mus musculus and Mus musculus musculus x Mus musculus castaneus with 52 samples.

Results

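The 8 genes Dusp1, Dusp2, Dusp4, Dusp5, Dusp6, Dusp7, Dusp9 and Dusp10 encode dual-specificity phosphatases that act on MAP kinases, and they were taken by name from an RNA sequencing table of 16687 genes in 24 libraries of mouse pluripotent stem cells. All 8 were found in the table. Dusp9 is the 1 X-linked member (chrX:73639389-73643514, RefSeq annotation of GRCm38.p6), and 7 members are autosomal.

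The libraries fell into 12 groups, and the labels give all of them the genotype WT (wild type) except those of 2 independent clones of female embryonic stem cells (ESCs) labelled Dusp9+/-, in which the X-linked phosphatase gene is heterozygous. These clones were read after 24 h without the cytokine LIF and at 0 h, beside the female WT XX line F121 and the male WT XY line V6.5 at the same times. All 4 of these lines were grown in serum without feeder cells. Female WT XX lines CM1 and CM2 and male WT XY lines CM3 and CM7 are undifferentiated ESCs at passage 5 (P5). Induced pluripotent stem cells (iPSCs, somatic cells reprogrammed to pluripotency) comprised the female lines LV20, LV21 and LV22 at passage 13 (P13, named XO by the series) and at passage 7 (P7, XX), and the male XY lines LV4, LV8 and LV16 at P13 and P7. The clones, F121 and the CM lines are labelled as crosses of Mus musculus musculus with Mus musculus castaneus, while V6.5 and the LV lines are labelled Mus musculus. F121 and V6.5 are 1 line each, so differences from either cannot be told apart from differences between lines. Where the labels do not say that replicate libraries came from separate cultures, p-values measure only the spread between these libraries.

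MAP kinases are switched on by phosphate on a threonine and a tyrosine, and these phosphatases remove both. Dusp6, Dusp7 and Dusp9 are cytoplasmic enzymes with a preference for the kinase ERK, which carries signals from FGF receptors and moves pluripotent cells towards differentiation. Dusp4 and Dusp5 are nuclear enzymes whose genes, like Dusp6, are switched on by ERK signalling and so damp the pathway that induced them. Dusp1 and Dusp2 are nuclear enzymes of immediate-early type, made within minutes of growth factor or stress signals, and Dusp10 acts mainly on the stress kinases JNK and p38. Dusp9 is studied in pluripotent cells because cells with an active pair of X chromosomes carry an extra dose of an ERK phosphatase.

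Promoter windows from RefSeq (GRCm38.p6) matched 6 of the 8 members by symbol. Shown are the 250 bases upstream of the annotated start, 5′ to 3′ on the strand of the gene, for the members whose levels moved most often in these comparisons (Dusp1 and Dusp6) and for Dusp5, an ERK-induced member that passed no test. The windows lie at chr17:26508473-26508722 on the minus strand for Dusp1, chr10:99262981-99263230 on the plus strand for Dusp6 and chr19:53528895-53529144 on the plus strand for Dusp5. Capitals mark matches to any of 6 motifs.
Dusp1: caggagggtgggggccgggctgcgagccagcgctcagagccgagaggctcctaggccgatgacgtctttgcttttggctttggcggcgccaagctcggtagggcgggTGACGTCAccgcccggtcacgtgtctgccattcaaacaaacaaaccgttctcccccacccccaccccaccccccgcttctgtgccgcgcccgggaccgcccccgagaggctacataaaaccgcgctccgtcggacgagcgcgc
Dusp6: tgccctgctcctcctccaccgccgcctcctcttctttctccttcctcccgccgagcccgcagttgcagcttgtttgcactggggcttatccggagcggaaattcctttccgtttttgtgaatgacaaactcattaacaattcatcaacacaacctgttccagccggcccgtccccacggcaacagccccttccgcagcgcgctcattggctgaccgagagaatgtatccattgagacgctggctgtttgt
Dusp5: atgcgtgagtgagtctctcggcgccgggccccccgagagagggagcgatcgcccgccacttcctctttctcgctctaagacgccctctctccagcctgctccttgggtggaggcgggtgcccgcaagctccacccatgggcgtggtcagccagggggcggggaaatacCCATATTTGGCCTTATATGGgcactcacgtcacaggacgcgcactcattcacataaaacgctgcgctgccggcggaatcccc
The motifs, searched on both strands, were the cAMP response element (TGACGTCA), the AP-1 site (TGANTCA), the ETS site (CCGGAAG), the GAS element (TTCNNNGAA), the TATA box (TATAAA) and the CArG box by name. The Dusp1 window held 1 match, a cAMP response element 143 to 136 bases upstream of the start, a motif present in 1.55% of 32851 windows of the same length. The Dusp5 window held 2 adjoining CArG boxes, 82 to 73 and 72 to 63 bases upstream, a motif present in 1.47% of windows. Dusp6 held none of these letters in this window, and neither did Dusp2, Dusp7 or Dusp10. The AP-1, ETS, GAS and TATA motifs were present in 6.75%, 6.91%, 7.02% and 12.4% of windows. A match describes the letters only.

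Levels are in log2 CPM, the log2 of read counts per library size, with a floor of -2.45 for 0 reads, and libraries held 8309171 to 14245900 recovered reads. A gene was called where limma's moderated test gave an adjusted p under 0.05, adjusted by Benjamini-Hochberg over every gene tested. The pluripotent markers (8 of 8 in the table) summed to 2334 to 4157 CPM in every library, with none at 0 reads. Median X-linked output, measured as the X-linked minus the autosomal median of a library in log2 CPM, was 0.44 in LV22 and 0.31 in LV20 at P7 but -0.3 in the library labelled LV21 at P7, against -0.76 to -0.6 in the XY iPSCs. At P13 it was -0.29 in LV22, against -0.63 and -0.75 in LV20 and LV21. The libraries LV21 at P7 and LV22 at P13 therefore stand apart from the other libraries of their label, and the iPSC results that move most on leaving out this pair of libraries are given with and without it. The pair was picked by X-linked output after seeing the data. Values of the X-linked Dusp9 without the pair depend on that choice and are a description, not evidence. Clone numbers at 24 h and 0 h may not name the same clone. The clones' deviations from their group mean ran opposite between the times, with a correlation across genes of -0.36 for the same number. The deviations of 2 clones from their mean mirror each other. The 0.36 for the crossed numbers is therefore the same value with its sign reversed, not a second observation. In a bulk library, fewer cells of a type and less RNA per cell cannot be told apart.

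**Figure D1:**
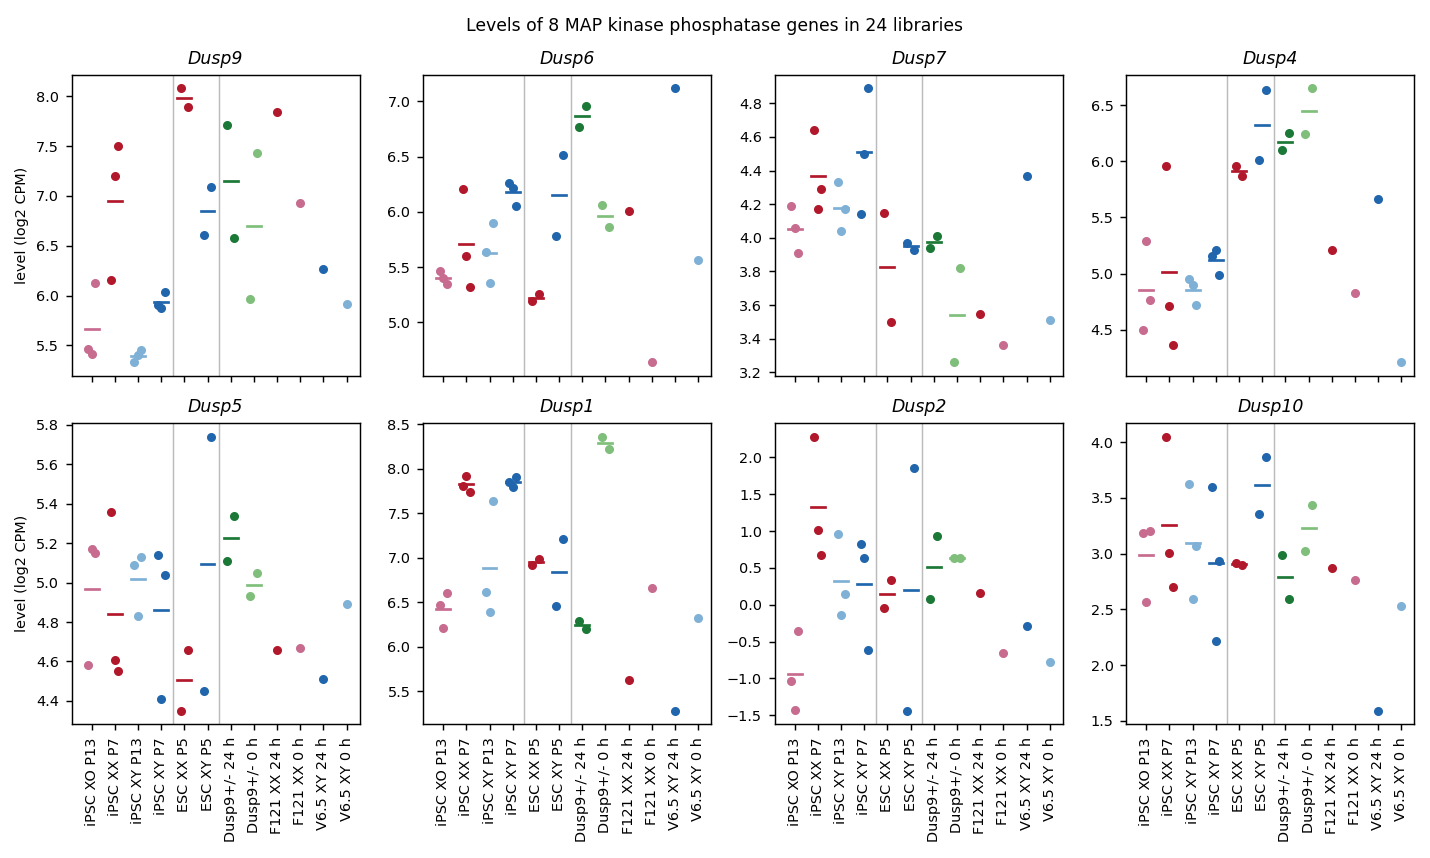
Level of each member (vertical axis, log2 CPM, a separate scale for each gene) in 24 libraries; points are libraries and bars are group means where a group has more than 1 library, with grey lines parting the iPSC, CM and LIF-withdrawal experiments. Dusp9 ranges over 5.33 to 8.08 log2 CPM with the XX CM lines at the top, and Dusp1 over 5.28 to 8.36 log2 CPM with the Dusp9+/- clones at 0 h at the top.

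Over the 24 libraries Dusp9 levels ran from 5.33 log2 CPM in LV4 at P13 to 8.08 log2 CPM in CM1, with a median of 6.21 log2 CPM and 405 to 2874 reads. The highest group mean was that of the XX CM lines (7.99), followed by F121 at 24 h (7.84) and the Dusp9+/- clones at 24 h (7.14, range 6.58 to 7.71). The lowest were the XO iPSCs (5.67, range 5.41 to 6.13) and the XY iPSCs at P13 (5.39, range 5.33 to 5.45), which overlapped each other. In between, the XX iPSCs at P7, F121 at 0 h, the XY CM lines and the clones at 0 h had means of 6.95, 6.93, 6.85 and 6.69 log2 CPM, followed by V6.5 at 24 h (6.27), the XY iPSCs at P7 (5.94) and V6.5 at 0 h (5.91). Neighbours in that order overlapped, except V6.5 at 24 h and the XY iPSCs at P7.

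The other ERK-preferring cytoplasmic enzymes had narrower ranges. Dusp6 levels ran from 4.64 log2 CPM in F121 at 0 h to 7.12 log2 CPM in V6.5 at 24 h, with 331 to 1522 reads. Dusp7 levels ran from 3.26 to 4.89 log2 CPM with 109 to 253 reads. Of the nuclear ERK-induced genes, Dusp4 ran from 4.21 to 6.65 log2 CPM and Dusp5 from 4.35 to 5.74 log2 CPM, the smallest range of the 8 members. Dusp1 ran from 5.28 to 8.36 log2 CPM and Dusp10 from 1.59 to 4.05 log2 CPM. Dusp2 was near the limit of detection at 2 to 44 reads per library (-1.44 to 2.28 log2 CPM). These ranges compare libraries within a gene, since levels were not scaled to gene length.

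The question of whether early-passage female lines differ from male lines was put to the 3 XX and 3 XY iPSC lines at P7. Dusp9 was higher in the XX lines by 2.02-fold and was the 1 member of 8 called, while the other 7 members, the ERK-induced and immediate-early genes among them, did not pass. Of all 13978 genes tested 4.78% were called in either direction. Dusp9 stood at 7.5, 7.2 and 6.16 log2 CPM in LV20, LV22 and LV21, against 5.9, 6.04 and 5.87 log2 CPM in LV4, LV8 and LV16. All 3 XX lines lay above all 3 XY lines, with LV21 close to the male values. The log2 difference was 1.01 ± 0.26 (SE; adjusted p = 0.0416, limma with Benjamini-Hochberg adjustment; 95% interval 0.45 to 1.58). Without the 2 libraries that stand apart, picked by their X-linked output, it was 1.41 (adjusted p = 1.95e-05), which is a description only. The call was lost under several settings, with adjusted p of 0.053 on recovered reads, 0.0716 with only the P7 libraries in the fit and 0.0838 with no filter on low values, and without LV4, LV8, LV16, LV20 or LV22 at P7 in turn (adjusted p 0.106 to 0.193). Among the 509 X-linked genes tested, 165 were called higher in XX lines and none lower, with a median log2 difference of 0.62 against -0.01 for autosomal genes, and 116 X-linked genes had a larger difference than Dusp9.

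Dusp6, the cytoplasmic ERK phosphatase that ERK itself induces, had 5.32, 5.6 and 6.21 log2 CPM in LV20, LV22 and LV21, against 6.26, 6.05 and 6.22 log2 CPM in LV4, LV8 and LV16. LV21 lay among the male values and the other two XX lines below them, and the groups overlapped. The log2 difference was -0.47 ± 0.19 (SE; adjusted p = 0.167). Without LV21 at P7 it was -0.72, which passed (adjusted p = 0.00774). The remaining 6 members did not pass, with log2 differences of -0.02 ± 0.23 for Dusp1, -0.14 ± 0.2 for Dusp7 and 1.05 ± 0.57 for Dusp2, the last with an interval of -0.18 to 2.27. Dusp4 had 4.36, 4.71 and 5.96 log2 CPM in LV20, LV22 and LV21, against 5.16, 4.99 and 5.21 log2 CPM in LV4, LV8 and LV16. LV21 alone of the XX lines lay above the male values, and the log2 difference was -0.11 ± 0.31. Leaving out both libraries that stand apart gave -0.58 for Dusp4 (adjusted p = 0.0844), -0.28 for Dusp5 and 0.57 for Dusp2, none of which passed. The median over the 8 members was -0.02, against 0 over all genes tested.

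Among 25 genes of the ERK cascade from FGF receptors to the kinases themselves, 2 were higher and 1 lower in XX iPSCs at P7, with a list median of 0.05. The 2 were the X-linked genes Elk1 (0.63 ± 0.17), a transcription factor that ERK phosphorylates, and Rps6ka3 (0.7 ± 0.15), an ERK-activated kinase. Mapk3, which encodes ERK1, was lower (-0.53 ± 0.11). Of 19 ERK feedback and target genes none passed (limma; 4 at an unadjusted p under 0.05; list median -0.04). Of 20 immediate-early and stress genes tested, 1 was lower, Zfp36 (-0.87 ± 0.21).

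At P13 no member of 8 was called between the female lines named XO and the XY lines (limma), with 1 member at an unadjusted p under 0.05 and 0 members called by voom on recovered reads. Of all 13978 genes 4 were called, 0.0286%. Dusp9 had 5.46, 5.41 and 6.13 log2 CPM in LV20, LV21 and LV22, against 5.33, 5.4 and 5.45 log2 CPM in LV4, LV8 and LV16. LV22, whose X-linked output also stood apart, was the highest, and the groups overlapped. The log2 difference of Dusp9 was 0.27 ± 0.26 (SE; 95% interval -0.29 to 0.84), and 0.04 without the 2 libraries that stand apart. The largest difference among the members was that of Dusp2 (-1.26 ± 0.57), on 2 to 5 reads in the XO libraries and 7 to 18 reads in the XY libraries. The median over the 8 members was -0.12, against 0 over all genes.

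**Figure D2:**
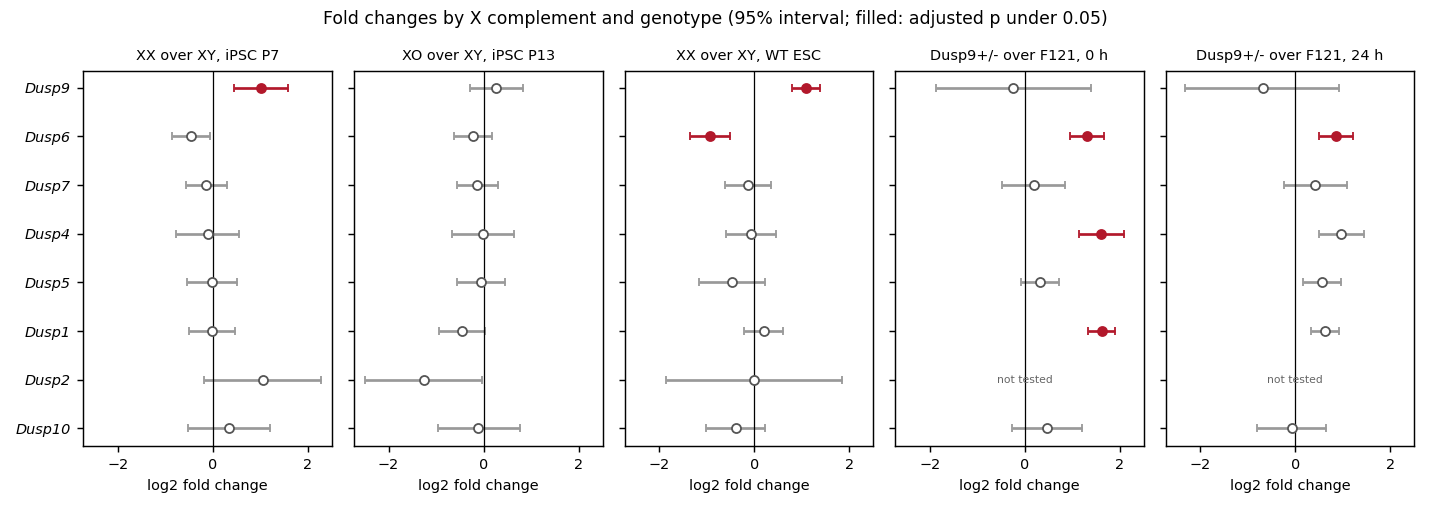
Log2 fold change (horizontal axis) of each member with its 95% interval in 5 comparisons, filled where the adjusted p was under 0.05; Dusp2 was not tested in the LIF-withdrawal libraries. Dusp9 is higher in XX than in XY cells at P7 (1.01) and in WT ESCs (1.1), Dusp6 is lower in XX WT ESCs (-0.93), and Dusp1, Dusp4 and Dusp6 are higher in the Dusp9+/- clones at 0 h (1.63, 1.61 and 1.32).

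In WT ESCs the same comparison was made over 3 XX and 3 XY lines, with the experiment (CM lines at P5, or withdrawal lines at 0 h) as a covariate. Here 2 of the 8 members were called in opposite directions. Dusp9 was 2.14-fold higher in XX lines and Dusp6 was 1.9-fold lower, while 7.19% of 14193 genes were called in either direction. Dusp9 had 8.08 and 7.89 log2 CPM in CM1 and CM2, against 6.61 and 7.09 log2 CPM in CM3 and CM7, and 6.93 log2 CPM in F121 against 5.91 log2 CPM in V6.5. The groups did not overlap within either experiment but did when pooled, because F121 lay below CM7. The fitted log2 difference was 1.1 ± 0.13 (SE; adjusted p = 0.00274). It was 1.13 between the CM lines alone and 1.02 between F121 and V6.5. F121 is labelled as a cross with Mus musculus castaneus and V6.5 as Mus musculus. Between these lines strain and the number of X chromosomes cannot be told apart, for Dusp9 or any other member. Of 533 X-linked genes tested, 250 were called higher and none lower, with a median of 0.71, and 113 had a larger difference than Dusp9.

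Dusp6 had 5.19 and 5.26 log2 CPM in CM1 and CM2, against 5.78 and 6.52 log2 CPM in CM3 and CM7, and 4.64 log2 CPM in F121 against 5.57 log2 CPM in V6.5. Every XX line lay below every XY line. The fitted log2 difference was -0.93 ± 0.18 (SE; adjusted p = 0.0207), and it was -0.93 within each experiment. Its call was lost without CM1 (adjusted p = 0.104) or without CM2 (adjusted p = 0.107). With no covariate for the experiment neither gene passed (adjusted p = 0.265 for Dusp9 and 0.211 for Dusp6).

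The other 6 members did not pass. Dusp4 had a log2 difference of -0.41 between XX and XY lines among the CM lines and of 0.62 between F121 and V6.5. Dusp5 gave -0.59 and -0.22 in the same order, with its XY CM lines far apart at 4.45 and 5.74 log2 CPM, and Dusp1 gave 0.12 and 0.34. Whether the experiments differ was not tested, with 1 library on each side in F121 and V6.5. The fitted intervals ran from -0.6 to 0.47 for Dusp4, from -1.16 to 0.22 for Dusp5 and from -0.21 to 0.6 for Dusp1. The median over the 8 members was -0.1, against -0.01 over all genes. Among ERK feedback and target genes, 3 of 19 were lower and none higher in XX ESCs, with a list median of -0.27 against -0.01 over all genes. They were Etv4 (-1.25 ± 0.11), an ETS transcription factor, Spry4 (-0.87 ± 0.18), an inhibitor of receptor signalling to ERK, and Spred1 (-0.66 ± 0.09), an inhibitor of Ras activation. Of 25 ERK cascade genes 3 were higher, all X-linked (Elk1 0.84, Rps6ka3 0.76 and Araf 0.56), and 3 were lower (Mapk3 -0.6, Shc1 -0.41 and Nras -0.4). Of 20 immediate-early and stress genes tested none passed (limma; 2 at an unadjusted p under 0.05; list median -0.11). Pluripotent markers were higher in XX ESCs in 3 of 8 cases, among them Nanog (1 ± 0.08), and their part in the members' differences was not tested.

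Passage was examined in the same iPSC lines at P13 and P7. In the female lines 3 of 8 members were lower at P13 than at P7, Dusp9, Dusp1 and Dusp2, and none was higher. These lines are labelled XO at P13 and XX at P7, so passage and the number of X chromosomes cannot be told apart in them. Of all 13978 genes 9% were called in either direction. Dusp9 had 5.46, 5.41 and 6.13 log2 CPM in LV20, LV21 and LV22 at P13, against 7.5, 6.16 and 7.2 log2 CPM in the same lines at P7. It was lower at P13 in each line, with log2 changes of -2.04, -0.75 and -1.07 in that order. The fitted log2 change was -1.29 ± 0.26 (SE; adjusted p = 0.0136). Without the 2 libraries that stand apart, picked by their X-linked output, it was -1.92 (adjusted p = 1.31e-05), which is a description only. The call was lost with only the female libraries in the fit (adjusted p = 0.0643), without LV20 at P7 (0.0644), without LV22 at P7 (0.0526) or without LV20 at P13 (0.0573). X-linked genes as a whole had a median change of -0.57, with 152 of 509 called lower and 3 higher, and 64 had a lower value than Dusp9.

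Dusp1, the immediate-early phosphatase, had 6.47, 6.21 and 6.6 log2 CPM in LV20, LV21 and LV22 at P13, against 7.74, 7.81 and 7.92 log2 CPM at P7. The passages did not overlap. The change was -1.4 ± 0.23 (SE; adjusted p = 0.0061), a 2.64-fold decrease that passed under all 13 alternatives of this comparison. Dusp2 fell by 2.27 ± 0.57 (SE; adjusted p = 0.0272), with 3, 2 and 5 reads in LV20, LV21 and LV22 at P13, against 14, 44 and 22 reads at P7. Its call was unstable. It was lost with only the female libraries in the fit (adjusted p = 0.068), and without LV21, LV22 or LV20 at P7, or LV20 or LV21 at P13, in turn (0.0634 to 0.0848). Without both libraries that stand apart its adjusted p was 0.057. Over the 8 members the median change was -0.31, against 0 over all genes.

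In the male lines 1 of 8 members fell, Dusp1, beside 13% of 13978 genes called in either direction. Dusp1 had 6.62, 6.39 and 7.64 log2 CPM in LV4, LV8 and LV16 at P13, against 7.85, 7.91 and 7.79 log2 CPM at P7. The passages did not overlap, but LV16 hardly moved, with a change of -0.15 against -1.23 in LV4 and -1.52 in LV8. The fitted change was -0.96 ± 0.23 (SE; adjusted p = 0.0145), and the call was lost without LV4 at P13 (0.0775), LV8 at P13 (0.0673) or LV8 at P7 (0.0683).

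Dusp9 in the male lines had 5.33, 5.4 and 5.45 log2 CPM at P13 in LV4, LV8 and LV16, against 5.9, 6.04 and 5.87 log2 CPM at P7. It was lower at P13 in all 3 lines without overlap, with a log2 change of -0.55 ± 0.26 (SE), and did not pass (adjusted p = 0.183). In a fit without the female libraries LV21 at P7 and LV22 at P13, which stand apart, the same change passed (adjusted p = 0.00526), as it did with only the male libraries (0.00843). Dusp6 had 5.64, 5.36 and 5.9 log2 CPM at P13 against 6.26, 6.05 and 6.22 log2 CPM at P7 in LV4, LV8 and LV16. Its change of -0.54 ± 0.19 did not pass (adjusted p = 0.0706), and it passed under 4 of 13 alternatives. These were the line as a replicate block (adjusted p = 0.0486), which raised the count of male members called to 2, and only the male libraries (0.0233). The others were without LV16 at P13 (0.0378) and without the 2 libraries that stand apart (0.0186). In the female lines the log2 difference of Dusp6 was -0.3 ± 0.19 (adjusted p = 0.333), with LV20 at 0.15, and it was -0.02 without the 2 libraries that stand apart. In the male lines the 8 members had a median of -0.29, against 0 over all genes.

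The difference between the female and the male change with passage was tested as an interaction, and 0 of 13978 genes (0%) and 0 of 8 members were called (limma; 1242 genes and 1 member at an unadjusted p under 0.05, 0 genes by voom). For Dusp9 it was -0.74 ± 0.37 (SE; adjusted p = 0.581; 95% interval -1.54 to 0.06). Without the 2 libraries that stand apart it was -1.37 and passed (adjusted p = 0.00322). It also passed without LV21 at P7 alone (-1.14, adjusted p = 0.0404). These libraries stood apart by X-linked output, so for an X-linked gene the passes without them are no evidence of a difference. Dusp2 gave -2.31 ± 0.81 (adjusted p = 0.48) and Dusp1 -0.44 ± 0.32 (adjusted p = 0.7).

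**Figure D3:**
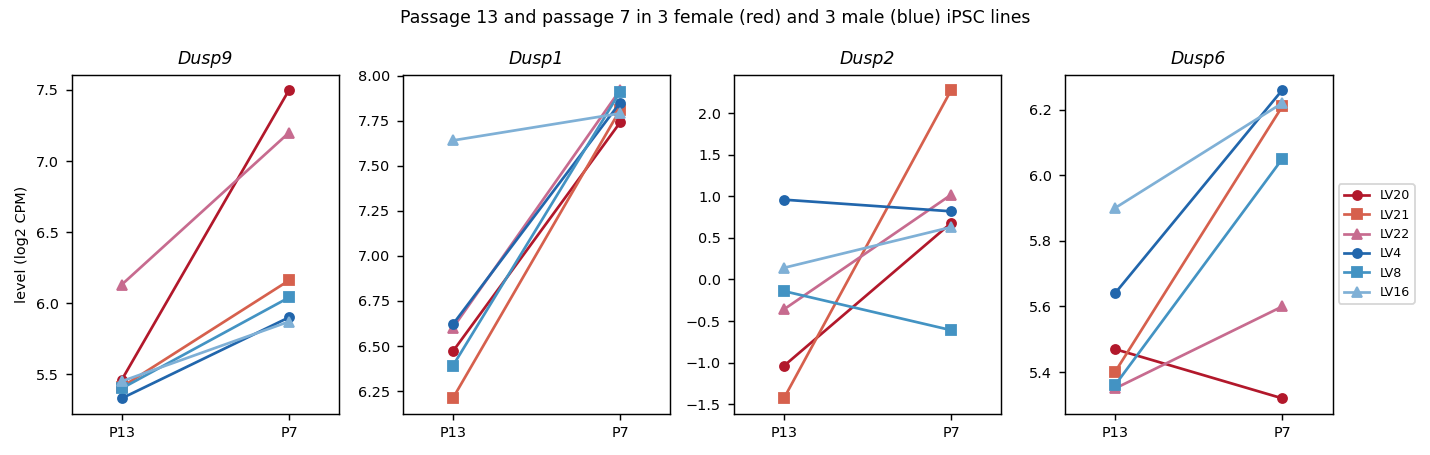
Levels (vertical axis, log2 CPM, a separate scale for each gene) of Dusp9, Dusp1, Dusp2 and Dusp6 at P13 (left) and P7 (right), with a line joining the libraries of each of 3 female (red) and 3 male (blue) iPSC lines. Dusp9 is lower at P13 in all 6 lines, from -0.42 in LV16 to -2.04 in LV20, and Dusp1 is lower at P13 in all 6 with LV16 changing least (-0.15).

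Immediate-early and stress genes moved with Dusp1 over the passages. Of 20 tested, 11 fell and none rose in female lines (list median -0.97), and 10 fell and 1 rose in male lines (list median -0.75), against a median of 0 over all genes in both. They included Jun (-2.35 ± 0.26), Fos (-2.39 ± 0.43) and Atf3 (-1.93 ± 0.32) in female lines, and Jun (-1.98 ± 0.26) and Fos (-2.36 ± 0.43) in male lines. These encode transcription factors of the AP-1 and ATF families. ERK feedback and target genes went both ways. In female lines 3 rose (Etv4 1.24, Etv1 1.11 and Spred1 0.66) and 2 fell (Egr1 -1.63 and Ier3 -1.03) of 19, and in male lines 4 rose (Spred3 1.24, Etv4 1.21, Myc 0.93 and Ccnd1 0.89) and none fell. Fibroblast and feeder markers also rose with passage. They summed to 661 to 1386 CPM in the XO libraries at P13 against 375.1 to 579.6 CPM in the XX libraries at P7, and to 652.6 to 1806 CPM against 370.5 to 405.5 CPM in the male libraries. Of 12 such markers 7 rose in female and 9 in male lines, none was at 0 reads, and their part in the members' changes was not tested.

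The Dusp9+/- clones were set against F121 at each time. Per the labels the clones differ from WT in Dusp9, but the labels do not give which part of the gene was edited, so the summed RNA of the gene does not check the label. At 0 h Dusp9 had 5.96 log2 CPM in clone 1 and 7.43 log2 CPM in clone 2, against 6.93 log2 CPM in F121. The clones lay on either side of F121. At 24 h the library labelled clone 1 had 7.71 log2 CPM and that labelled clone 2 had 6.58 log2 CPM, against 7.84 log2 CPM in F121, so that both lay below it and the order of the clone numbers was reversed. The log2 difference was -0.24 ± 0.66 at 0 h (SE; adjusted p = 0.836; 95% interval -1.86 to 1.39) and -0.69 ± 0.66 at 24 h (adjusted p = 0.547; 95% interval -2.32 to 0.93). In V6.5, a male line, Dusp9 had 6.27 log2 CPM at 24 h and 5.91 log2 CPM at 0 h.

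Other members were higher in the clones at 0 h. Of 7 members tested, 3 rose (Dusp1, Dusp4 and Dusp6) and none fell, beside 8.91% of 14335 genes called in either direction. The median over the 7 members was 0.47, against -0.01 over all genes tested. Dusp1 had 8.36 and 8.22 log2 CPM in clones 1 and 2, against 6.66 log2 CPM in F121 and 6.32 log2 CPM in V6.5. The clones held the highest Dusp1 levels of all 24 libraries. The difference from F121 was 1.63 ± 0.12 (SE; adjusted p = 0.0127), or 3.09-fold.

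The ERK-induced Dusp4 had 6.24 and 6.65 log2 CPM in clones 1 and 2, against 4.83 log2 CPM in F121, a difference of 1.61 ± 0.19 (SE; adjusted p = 0.019), or 3.06-fold. Dusp4 had 4.21 log2 CPM in V6.5, and in the unedited CM lines 5.87 to 5.96 (XX) and 6.01 to 6.63 log2 CPM (XY). The XY CM lines overlapped the clones. Dusp6 had 6.06 and 5.86 log2 CPM in the clones, against 4.64 log2 CPM in F121, the lowest Dusp6 level of all 24 libraries. The difference was 1.32 ± 0.15 (SE; adjusted p = 0.0173), or 2.49-fold, and V6.5 with 5.57 log2 CPM lay nearer to the clones than to F121. All 3 calls passed under the 6 alternatives of this comparison, of which 2 set a single clone at 0 h against F121 with the spread taken from the clones at 24 h, and so say little about stability.

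Dusp5 (0.32 ± 0.16), Dusp10 (0.47 ± 0.3) and Dusp7 (0.19 ± 0.27) did not pass at 0 h. Dusp2 was under the filter of 1 CPM in these libraries, with 16 and 17 reads in the clones, against 6 reads in F121. Of the MAP kinase phosphatases outside the 8, Dusp8, which acts on JNK and p38, was higher in the clones at 0 h (2.22 ± 0.28; adjusted p = 0.0199) and Dusp16, which acts on JNK, was lower (-0.71 ± 0.1; adjusted p = 0.0243).

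At 24 h 1 of 7 members passed, Dusp6, beside 2.55% of 14335 genes called in either direction. Dusp6 had 6.77 and 6.96 log2 CPM in clones 1 and 2, against 6.01 log2 CPM in F121 and 7.12 log2 CPM in V6.5. The difference from F121 was 0.85 ± 0.15 (SE; adjusted p = 0.0478). The call was lost with no filter (0.0924), on recovered reads (0.0603) and without clone 1 (0.0857) or clone 2 (0.217) at 24 h. Dusp4 (0.97 ± 0.19; adjusted p = 0.0584) and Dusp1 (0.62 ± 0.12; adjusted p = 0.0549) lay just outside the threshold. Dusp1 had 6.29 and 6.2 log2 CPM in the clones, against 5.63 log2 CPM in F121, and Dusp4 had 6.1 and 6.25 log2 CPM in the clones, against 5.21 log2 CPM in F121. Over the 7 members the median difference at 24 h was 0.56, against -0.02 over all genes.

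In the clones at 0 h, 8 of 19 immediate-early and stress genes tested were higher and none lower, with a list median of 1.12. They included Jun (2.74 ± 0.19), Fos (2.47 ± 0.21), Gadd45g (2.69 ± 0.54), a stress-kinase activator, and Egr2 (2.48 ± 0.38), a zinc finger transcription factor. Of 19 ERK feedback and target genes 4 were higher (Ier3 1.87, Egr1 1.42, Phlda1 1.17 and Spry1 1.01) and 1 lower (Etv4 -0.75), with a list median of 0.01. Of 25 ERK cascade genes 3 were higher (Fgfr2 0.87, Frs2 0.63 and Shc1 0.54) and 1 was lower. Of 11 JNK and p38 pathway kinases 2 were higher, the p38 genes Mapk13 (1.51 ± 0.2) and Mapk12 (1.35 ± 0.22).

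Other markers moved with the clones too. Fibroblast and feeder markers summed to 124.2 to 272.4 CPM in the clones at 0 h, against 970.1 CPM in F121 and 1024 CPM in V6.5, and 7 of 11 tested were lower. F121 and V6.5 at 0 h also lay above the CM lines (690.6 to 833.1 CPM), although both are described as grown without feeder cells. Of 3 trophoblast markers tested 2 were higher in the clones at 0 h (Hand1 3.58 and Krt7 2.97). The 5 listed summed to 118.6 to 123.1 CPM in the clones, against 56.48 CPM in F121 and 36.68 CPM in V6.5. That sum was not particular to the clones, with 95.3 to 113.2 CPM in the CM lines and 83.55 to 172.1 CPM in the iPSCs. Tfap2c had the highest level of the 5 in every group, with 6.14 to 6.53 log2 CPM in the clones at 0 h and 6.31 to 6.59 in the XY CM lines. Hand1 (3.41 to 3.55 log2 CPM) and Krt7 (4.05 to 5.17) in the clones at 0 h lay above every unedited group. The highest unedited values were 1.97 and 3.8 log2 CPM, in XY iPSCs at P7. Cdx2 and Elf5 overlapped unedited groups. At 24 h all 3 trophoblast markers tested were higher in the clones. The fibroblast markers summed at 24 h to 158.1 to 264.7 CPM in the clones, against 329.2 CPM in F121. None of these markers was at 0 reads in the clones or F121, and their part in the members' differences was not tested. Pluripotent markers were lower in the clones at 0 h in 2 of 8 cases (Nanog -0.81 and Zfp42 -0.45), with none of 8 called at 24 h (limma; 3 at an unadjusted p under 0.05).

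Removal of LIF for 24 h was followed in the 4 lines with genotype as a covariate. Of 7 members tested, Dusp6 rose and Dusp1 fell, while 32.7% of 14335 genes were called in either direction. Dusp6 had 6.77, 6.96, 6.01 and 7.12 log2 CPM at 24 h in clone 1, clone 2, F121 and V6.5, against 6.06, 5.86, 4.64 and 5.57 log2 CPM at 0 h. It was higher at 24 h in every line, by 0.71 to 1.54 on the log2 scale with the clones as numbered in the labels. The fitted change was 1.18 ± 0.13 (SE; adjusted p = 0.000996). Dusp1 had 6.29, 6.2, 5.63 and 5.28 log2 CPM at 24 h in the same order of lines, against 8.36, 8.22, 6.66 and 6.32 log2 CPM at 0 h. It was lower in every line and the times did not overlap, with a fitted change of -1.54 ± 0.19 (SE; adjusted p = 0.00147), a 2.91-fold decrease.

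The remaining members did not pass in the fit without pairing. Dusp9 was higher at 24 h by 0.91 in F121 and 0.36 in V6.5, and the clones, whose numbers may be crossed between the times, had 7.71 and 6.58 log2 CPM at 24 h, against 5.96 and 7.43 log2 CPM at 0 h. Its fitted change without pairing was 0.54 ± 0.34 (adjusted p = 0.258). Dusp7 was higher in all 4 lines, by 0.18 to 0.86 with the clones as numbered in the labels. Its fitted change was 0.48 ± 0.17 (adjusted p = 0.0601), and it passed without clone 2 at 0 h (0.6, adjusted p = 0.0355). Dusp4 was higher in F121 (0.38) and V6.5 (1.45), and had 6.1 and 6.25 log2 CPM in the clones at 24 h, against 6.24 and 6.65 log2 CPM at 0 h, for a fitted change of 0.32 ± 0.27. Dusp5 had a fitted difference of 0.02 ± 0.13 and Dusp10 one of -0.43 ± 0.21, and Dusp2 had 11, 20, 11 and 7 reads at 24 h in clone 1, clone 2, F121 and V6.5, against 16, 17, 6 and 4 reads at 0 h. The median over the 7 members tested was 0.32, against 0.02 over all genes.

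**Figure D4:**
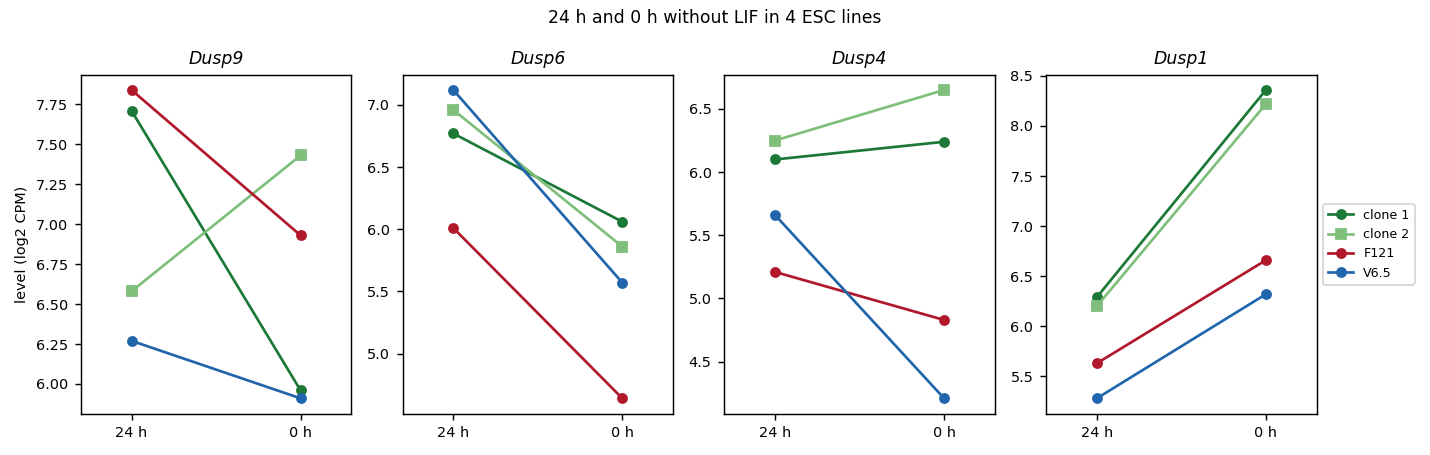
Levels (vertical axis, log2 CPM, a separate scale for each gene) of Dusp9, Dusp6, Dusp4 and Dusp1 at 24 h (left) and 0 h (right) without LIF, with a line joining the libraries of each of 4 ESC lines as numbered in the labels. Dusp6 is higher and Dusp1 lower at 24 h in every line, Dusp4 differs most in V6.5 (1.45), and the lines drawn for clone 1 and clone 2, whose numbers may be crossed between the times, run in opposite directions for Dusp9 (1.75 and -0.84).

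Whether the change without LIF differed between the clones and F121 was tested as an interaction, in which 0 of 14335 genes (0%) and 0 of 7 members were called (limma; 1766 genes and 1 member at an unadjusted p under 0.05, 0 genes by voom). The largest member value was that of Dusp1, -1.01 ± 0.17 (SE; adjusted p = 0.206). Dusp1 changed by -2.08 and -2.02 in the clones as numbered in the labels and by -1.04 in F121, the same as in V6.5. Dusp4 gave -0.64 ± 0.27 (adjusted p = 0.419), Dusp6 -0.47 ± 0.21 (adjusted p = 0.429) and Dusp9 -0.46 ± 0.94 (adjusted p = 0.873).

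Without LIF the ERK feedback and target genes split, with 7 of 19 higher and 3 lower and a list median of 0.22. Myc (1.38 ± 0.28), a growth-promoting transcription factor, and Spry4 (1.27 ± 0.09) rose with Dusp6, and Egr1 (-2.05 ± 0.34), Klf6 (-0.97 ± 0.12) and Ier3 (-0.88 ± 0.21) fell. Of 19 immediate-early and stress genes tested 12 fell and none rose (list median -0.8), led by Fosb (-7.09 ± 0.32), Fos (-5.41 ± 0.34) and Atf3 (-2.92 ± 0.22). Of 25 ERK cascade genes 7 rose and none fell, among them the receptor gene Fgfr2 (1.05 ± 0.12) and the kinase gene Braf (0.53 ± 0.1). Dusp16 fell (-0.46 ± 0.08). Fibroblast and feeder markers fell in 5 of 11 tested, with Lum at 0 reads in V6.5 at 24 h. They summed to 329.2 CPM in F121 and 285.3 CPM in V6.5 at 24 h, against 970.1 and 1024 CPM at 0 h. In the clones the times overlapped, with 158.1 to 264.7 CPM at 24 h against 124.2 to 272.4 CPM at 0 h. Of 8 pluripotent markers 4 fell, including Nanog (-1.64 ± 0.15), and 1 rose, and their part in the members' changes was not tested.

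**Figure D5:**
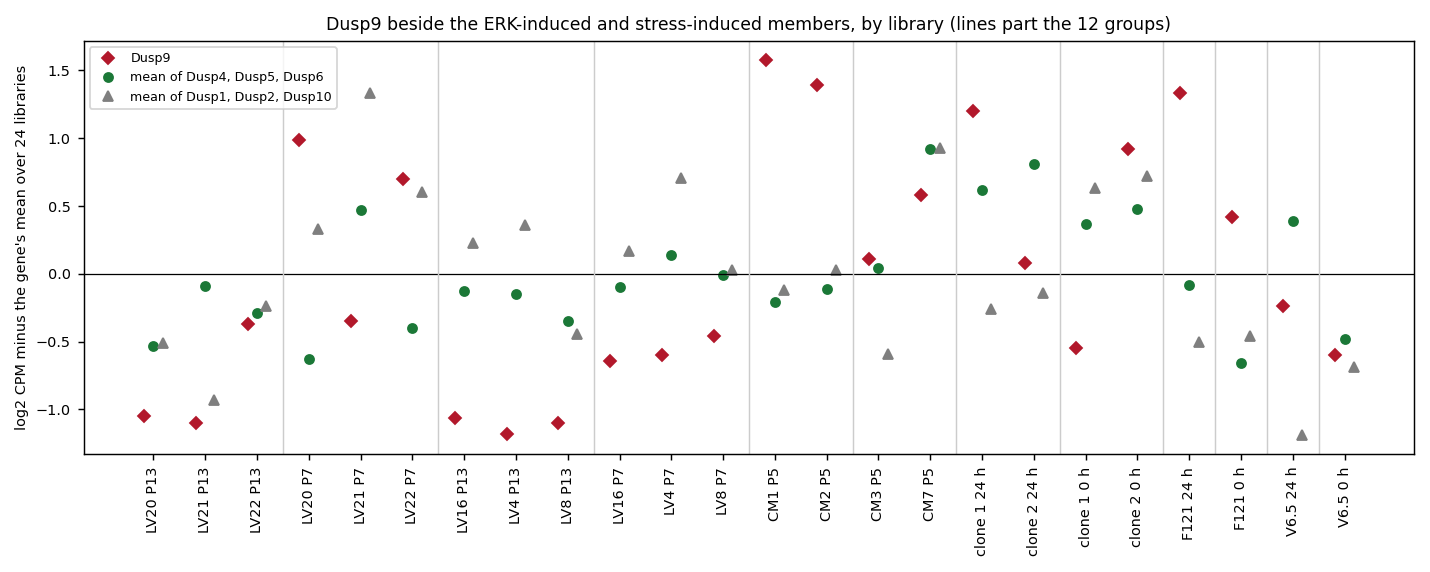
Deviation of Dusp9, of the mean of Dusp4, Dusp5 and Dusp6, and of the mean of Dusp1, Dusp2 and Dusp10 from their own means over 24 libraries (vertical axis, log2 CPM), by library, with grey lines parting the 12 groups. Dusp9 lies above the ERK-induced mean in 6 of 7 unedited XX libraries, the exception being LV21 at P7, and below it in 9 of 10 XY libraries.

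To set Dusp9 beside its relatives within each library, each gene was expressed as its deviation from its own mean over the 24 libraries, and Dusp4, Dusp5 and Dusp6 were averaged as the ERK-induced members and Dusp1, Dusp2 and Dusp10 as the stress-induced members. These values share the libraries and the differences described above and are a description. Dusp9 minus the ERK-induced mean was positive in 6 of 7 unedited XX libraries, with a median of 1.42 and a range of -0.82 to 1.78. It was negative in all 3 XO libraries (-1.01 to -0.08) and in 9 of 10 XY libraries (median -0.58, range -1.03 to 0.07). In the 4 Dusp9+/- libraries it was -0.91 and 0.44 at 0 h and 0.58 and -0.73 at 24 h in clones 1 and 2, against 1.09 at 0 h and 1.42 at 24 h in F121. All 4 clone values lay below both F121 values.

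The offset from the stress-induced mean was less even, positive in 6 of 7 unedited XX libraries (median 0.88), in 3 of 10 XY libraries (median -0.58), in 3 of 4 clone libraries and in none of 3 XO libraries. LV21 at P7 had the most negative value, -1.68, with Dusp9 at -0.35 and the stress-induced mean at 1.33 from their own means. That library also held the highest levels of Dusp2 (2.28 log2 CPM) and Dusp10 (4.05 log2 CPM) of the 24. Dusp2, 1 of the 3 genes in the stress-induced mean, was near the limit of detection at 2 to 44 reads per library.

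The genes whose pattern was most like that of each principal member were found by Pearson correlation over the 24 libraries, each gene centred within the iPSC, CM and withdrawal experiments, among 14234 genes. The libraries share lines and culture, so these are descriptions. For Dusp9 they included Klhl22 (r = 0.85), the X-linked genes Bcorl1 and Xlr3c (r = 0.84 each) and Map3k3 (r = 0.83), a kinase of MAP kinase cascades. For Dusp6 they were Pcdh1 (r = 0.91), Plekha1 and Shroom3 (r = 0.9 each), and Sox11 and Sema6a (r = 0.88 each). For Dusp1 they were Jun, Maff and Egr2 (r = 0.95 each), Bhlhe40 (r = 0.94) and Atf3 (r = 0.93), of which Jun, Egr2 and Atf3 belong to the immediate-early and stress list. Between the members the highest correlations were 0.64 for Dusp6 with Dusp7, 0.6 for Dusp5 with Dusp10 and 0.58 for Dusp4 with Dusp6. Dusp9 gave -0.14 with Dusp6, -0.21 with Dusp5 and 0.22 with Dusp1.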

How the data were processed

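RNA from 24 libraries was analysed; the chromatin accessibility samples were not analysed here. Per the labels' protocols, TRIzol RNA went into stranded mRNA libraries read single-end. Per the submitters' processing notes, STAR 2.5.3a, featureCounts and edgeR were used with builds GRCm38 and mm10, with roles not given in the sources used here. The withdrawal samples have 8 technical repeats in the labels but 1 column for each line and time, and whether repeats were combined is not stated.

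The authors deposited log2 CPM values rather than raw counts. On the linear scale each column was a floor plus whole multiples of 1 read; at a tolerance of 0.01 read 100% of values were whole, which gave the recovered reads. Depth sets the precision of low genes such as Dusp2.

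The deposited log2 values were tested for genes averaging 1 CPM or more in a fit's libraries with limma 3.58.1 in R 4.3.3 (lmFit, eBayes with a trend, two-sided, Benjamini-Hochberg over all genes tested). The 12 iPSC libraries shared a fit of 4 group means, the 6 WT ESC lines a fit with experiment as covariate, and the 8 withdrawal libraries a fit of 6 means of genotype and time, so that F121 and V6.5, with 1 library a mean, take their spread from the clones. Change over 24 h was fitted with genotype as covariate. Alternatives were a pseudocount of 1 CPM, no filter, re-centring on the autosomal median, voom on recovered reads, fewer libraries or covariates, the line as a replicate block and leaving out each library. The fits were also run on simulated counts with the same dispersion for every gene and no effect of line or clone. That run does not bear on calls against a reference of 1 line. Same-numbered iPSC libraries are the same cell line, which pairs them; their deviations correlated by -0.04 to 0.11.

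All 8 members are described in every comparison; called genes of the gene lists may be named with counts for the whole list, and the 5 genes of highest correlation are named for Dusp9, Dusp6 and Dusp1, except for some genes that are not reported here. The members and lists were chosen with earlier results of these data known. Sequences are from RefSeq.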

Additional observations from a re-analysis of the deposited data

How the results depend on the processing

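Of 904 recomputed member values, 861 kept their side of the threshold, and 59 of these, called in neither fit, had the other sign. Another 30 lost a call and 13 gained one, and 0 called values changed sign. In XX against XY iPSCs at P7 the count of members called was 1, but 0 with no filter on low values, 0 with voom on recovered reads, 0 with only the compared libraries and 2 without the female libraries that stand apart (LV21 at P7, LV22 at P13), and leaving out each library in turn gave 0 to 2. With passage in female lines it was 3, but 1 with only the female libraries, and 1 to 3 on leaving out each library. In male lines it was 1, but 3 with only the male libraries, 3 without the 2 that stand apart, and 0 to 2 on leaving out each library. The female-minus-male passage difference had 0, but 1 without those 2 libraries, and 0 to 1 on leaving out each. WT ESCs had 2 members called, but 0 with no experiment covariate, and 1 to 2 on leaving out each library. The clones at 24 h had 1, but 0 with no filter, 0 with voom and 0 on leaving out either clone. Leaving out that pair was chosen after seeing the data, by X-linked output, so the results without it are no evidence for the X-linked Dusp9. With no filter, more low genes enter the adjustment, and leaving out a library leaves fewer samples; other causes of these shifts were not tested.

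Counts over all genes moved as well. At P7 668 genes were called, against 440 with no filter, 428 with only the compared libraries, 1818 without the pair that stands apart and 44 to 1727 on leaving out each library. With passage 1258 were called in female lines (436 with only these libraries, 174 to 2079 on leaving out each) and 1823 in male lines (429 to 2198 on leaving out each), and their difference had 0 (364 without the pair, 11 with the line as a block, 0 to 145 on leaving out each). WT ESCs had 1020 (149 with no covariate, 1690 with the CM lines alone, 208 to 1682 on leaving out each). The clones had 1277 at 0 h (200 with no filter, 1610 to 1953 on leaving out each) and 366 at 24 h (0 with no filter, 16 with voom, 1 to 104 on leaving out each). Withdrawal had 4688 (3086 to 4158 on leaving out each), and its difference between clones and F121 0 (0 to 24 on leaving out each).

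With the line as a replicate block the count was 2 in male lines (1 without the block) and 3 in female lines, and the block changed no other count of members called. Because the clone numbers ran opposite at the 2 times, the crossed pairing was tried after seeing the data. It called 3 members with withdrawal, Dusp1, Dusp6 and Dusp9 (2 without the block). For the difference between clones and F121 it called 1, Dusp1 (0 without the block), with 754 genes called in all. The pairing was chosen from the same values, so these counts are no evidence for it.

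Limits are the 2 residual degrees of freedom for the clones, a WT XX reference of 1 line, and 2 to 44 reads for Dusp2. Gene levels are not scaled to length, and the effect of different strains and read lengths of 36 or 51 bases was not tested.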
